A study of Mus musculus with 10 samples.

Results

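Immunoglobulin light chain genes were examined in 10 RNA-seq libraries of mouse splenic germinal center B cells. The genes were the rows of the count table whose symbol begins with Igkv, Igkj, Igkc, Iglv, Iglj or Iglc and that held at least 10 counts summed over the 10 libraries. Of 55421 rows, 136 met this rule: 120 kappa variable (Igkv), 5 kappa joining (Igkj), 1 kappa constant (Igkc), 3 lambda variable (Iglv), 3 lambda joining (Iglj) and 4 lambda constant (Iglc) genes. The rule used no difference between groups. A further 42 light chain symbols lay under the minimum, 39 of them pseudogenes, and 13 of the 42 had no counts at all. The member nearest the threshold held 11 counts and the highest of those left out held 9.

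All groups came from C57BL/6 mice of 8 to 10 weeks of age, immunized 10 days before the spleens were taken, and the immunogen is not named in the labels. Cells were enriched with magnetic beads for PNA, a lectin that binds germinal center B cells. WT stands for Pbrm1+/+ and HOMO for Pbrm1-/-. Cells of either genotype were split into CB and CC, names that the labels leave unexplained. There were 3 libraries each of WT CB and WT CC, and 2 each of HOMO CB and HOMO CC. Pbrm1 encodes a subunit of the PBAF chromatin remodelling complex. How and in which cells Pbrm1 was deleted is not said in the labels. It is also not said whether each library had its own mouse, so all p-values here weigh differences against a spread that could be technical. HOMO libraries carry the numbers 2 and 3 of the count table and are not paired by them. Below, the values of a group follow the order of its library numbers.

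Every antibody has a light chain of the kappa or the lambda type. A developing B cell joins 1 variable (V) segment to 1 joining (J) segment, and splicing attaches the constant (C) region, so that a cell normally makes a single light chain. Most mouse B cells carry kappa, which draws on a large set of Igkv segments, while the mouse lambda locus holds few V segments, each joined to nearby J-C units. Germinal center B cells mutate the rearranged V region and are selected by what their antibody binds. In bulk RNA the level of a segment mixes the number of cells that carry it with the RNA per cell, and these cannot be told apart here.

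On mm10, 126 members lie on chromosome 6 between 67555497 and 70726966 (kappa) and 10 on chromosome 16 between 19061618 and 19260859 (lambda). The coordinates of all 136 equal those of GENCODE M21, which annotates 102 members as V genes and 21 as pseudogenes. The J segments, whose shares differed between libraries as given further on, are shown first, 5′ to 3′ on their own strand, from the GENCODE M21 transcripts. Capitals mark TTNGG, then 4 bases of any kind, then GGN, letters that can encode the phenylalanine-glycine motif of a joined J region, searched on the coding strand only and found in 6 of the 8 segments.
Igkj1: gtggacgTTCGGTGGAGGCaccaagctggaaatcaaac
Igkj2: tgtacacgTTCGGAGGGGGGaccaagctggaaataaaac
Igkj3: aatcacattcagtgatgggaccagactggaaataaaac
Igkj4: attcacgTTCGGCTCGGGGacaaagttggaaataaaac
Igkj5: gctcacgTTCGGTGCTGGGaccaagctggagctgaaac
Iglj1: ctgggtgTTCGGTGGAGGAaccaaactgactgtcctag
Iglj3: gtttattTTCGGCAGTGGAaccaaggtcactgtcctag
Iglj3p: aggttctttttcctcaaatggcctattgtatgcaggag

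These coding exons are 38 or 39 bases long, and the gene entries of Igkj2 and Igkj5 extend further at the 3′ end, to 43 and 42 bases. Igkj1 lies at chr6:70722562-70722599, Igkj3 at chr6:70723223-70723260 and Igkj5 at chr6:70723886-70723923, all on the plus strand with Igkc (chr6:70726435-70726966). Iglj1 lies at chr16:19063225-19063262, next to Iglc1 (chr16:19061618-19062071), and Iglj3 at chr16:19067041-19067078, next to Iglc3 (chr16:19065230-19065681), all on the minus strand. Igkj3 is known as a kappa J segment that does not give a functional light chain. Neither Igkj3 nor Iglj3p holds the motif, which says only that these letters are not in this stretch.

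The most used V segments, Igkv1-117 and Igkv1-110, are shown next because their sequences are close enough to bear on how reads are counted. The last 300 bases of their V exons are given, from chr6:68121528-68121827 and chr6:68270968-68271267 on the plus strand, and capitals mark the 10 positions at which they differ.
Igkv1-117: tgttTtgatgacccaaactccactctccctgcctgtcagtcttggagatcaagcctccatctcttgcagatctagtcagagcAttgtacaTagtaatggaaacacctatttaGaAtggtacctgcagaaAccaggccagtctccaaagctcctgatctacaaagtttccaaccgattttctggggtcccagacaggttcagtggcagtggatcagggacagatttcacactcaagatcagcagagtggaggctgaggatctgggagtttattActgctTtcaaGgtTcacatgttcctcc
Igkv1-110: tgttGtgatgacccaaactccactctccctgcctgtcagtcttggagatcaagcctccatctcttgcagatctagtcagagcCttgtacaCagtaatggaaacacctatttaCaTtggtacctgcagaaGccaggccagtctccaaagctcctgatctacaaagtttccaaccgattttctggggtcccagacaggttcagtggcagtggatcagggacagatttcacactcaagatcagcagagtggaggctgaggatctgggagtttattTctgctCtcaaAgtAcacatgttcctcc

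These 2 exons share 96.7% of the 300 bases and 1 run of 142 identical bases. Among the 99 functional Igkv members, the longest run shared with any other member had a median of 81 bases, and 23 members shared a run of at least 100. In the lambda locus, the V exons of Iglv1 and Iglv2 were 97.0% identical and the annotated exons of Iglc2 and Iglc3 were 95.4% identical, while Iglc1 was 69.2% identical to Iglc2 and 70.7% to Iglc3. How the authors' counting treated reads that match several segments, that span a joint between V, J and C, or that carry mutations is not given in the sources used here. The split between near copies, and all J counts, are therefore uncertain. Iglc3 also overlaps 93 bases of 2010309G21Rik on the opposite strand, Iglc2 contains the 38 bases of Iglj2 (listed at 0 in all libraries), and Igkv2-137 overlaps 301 bases of Gm42889.

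Total counts ranged from 9954006 in HOMO CC library 3 to 67625110 in HOMO CB library 3. The 10 listed germinal center B cell markers were all detected and summed to between 4178 and 7446 CPM (read counts scaled to library size with TMM factors) per library. Pbrm1 ranged from 239 to 319 CPM in the WT libraries and from 150 to 178 CPM in the HOMO libraries. WT CC libraries 1 and 2 stood apart from the others. The ribosomal RNA-like gene Gm26917 took 19.9% and 16.1% of their counts against 7.76% to 11.9% in the others. Apart from Apoe, which had 212 to 399 CPM in all libraries, the macrophage markers summed to 775 and 194 CPM there against 14.8 to 55.1 CPM in the others. The rank correlation of expression with GC content, each gene relative to its mean over the libraries, was 0.43 and 0.55 in these libraries, and it ranged from -0.63 to 0.25 in the others (8642 genes). Results are therefore also given without WT numbers 1 and 2, which removes the CB libraries of those numbers too.

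Light chain transcripts made up a larger share of all counts in CB than in CC. The share was 0.284%, 0.305% and 0.235% in WT CB and 0.0971%, 0.125% and 0.178% in WT CC. It was 0.286% and 0.261% in HOMO CB and 0.194% and 0.164% in HOMO CC. Every CC library lay under every CB library in both genotypes. The 95% Wilson interval of the lowest-count library, HOMO CC 3, ran from 0.162% to 0.167%, and such intervals cover counting error only. The difference of means was -0.142 percentage points in WT (n = 3 and 3, two-sided exact permutation p = 0.1, the smallest this design allows) and -0.0944 in HOMO (n = 2 and 2, exact p = 0.333, likewise the smallest). Between genotypes, HOMO CB and WT CB overlapped (means of 0.274% and 0.275%, exact p = 1), as did HOMO CC and WT CC (0.179% and 0.133%, exact p = 0.4). All 12 permutation tests of the 3 summary measures had Benjamini-Hochberg p of at least 0.533.

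In WT, the light chain genes were lower in CC than in CB as a group. Of the 113 members that passed the filter on low counts, edgeR's quasi-likelihood test called 52 lower and 0 higher, where 12.3% of all 16596 genes were called lower and 11.6% higher. The log2 change was negative for all 113, with a median of -1.21 against 0.01 over all genes, and without the filter for 131 of 136. A low member can pass the filter through the CB libraries alone. For 71 members every WT CC library lay under every WT CB library, and this held for 17.9% of all genes. The remaining 23 members were not tested. Leaving out WT CB library 1 gave 25 calls (12.7% of all genes were then called), leaving out WT CB library 2 gave 20 (14.7%), and leaving out either WT CC library 1 or WT CC library 2 gave 24 (15.2% and 15.3%). A WT number is shared by 1 CB and 1 CC library. Without WT numbers 1 and 2, 12 were called, with a median of -0.45, a share of 10.9% against 14.7% of all genes. Without WT number 3, 85 were called, with a median of -1.77, a share of 75.2% against 46.02% of all genes.

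The size of the difference varied across the WT libraries. Taking CC minus CB within a WT number, with 0.1 CPM added, the median log2 difference over the 113 members was -1.72 for number 1, -1.69 for number 2 and -0.40 for number 3. The members lower in CC numbered 113, 112 and 88. Within the numbers 2 and 3 of the HOMO columns, which are not known to pair, the medians were -0.63 and -0.65. WT numbers 1 and 2 are those with the high macrophage, ribosomal RNA-like and GC values in CC given above, and the part of these in the result was not tested.

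Igkc, the constant region of every kappa chain, had 1552, 1660 and 1176 CPM in WT CB and 586, 698 and 886 CPM in WT CC. All CC values lay under all CB values, and WT library 3 had the smallest gap. Its fitted log2 change was -1.02 (SE 0.16, edgeR adjusted p = 0.00167), and it was called under all alternatives run (adjusted p of at most 0.0362). Iglc1, the constant region joined to Iglj1, had 155, 156 and 95.1 CPM in WT CB and 42.3, 47.5 and 59.8 CPM in WT CC. The groups did not overlap. edgeR gave -1.44 on the log2 scale (SE 0.21, adjusted p = 0.00125). Its call was lost only without WT numbers 1 and 2 (-0.70, adjusted p = 0.354). In HOMO the Igkc values were 1364 and 1312 CPM in CB and 932 and 778 CPM in CC, and the Iglc1 values 127 and 96.0 CPM in CB and 71.2 and 54.7 CPM in CC.

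**Figure D1:**
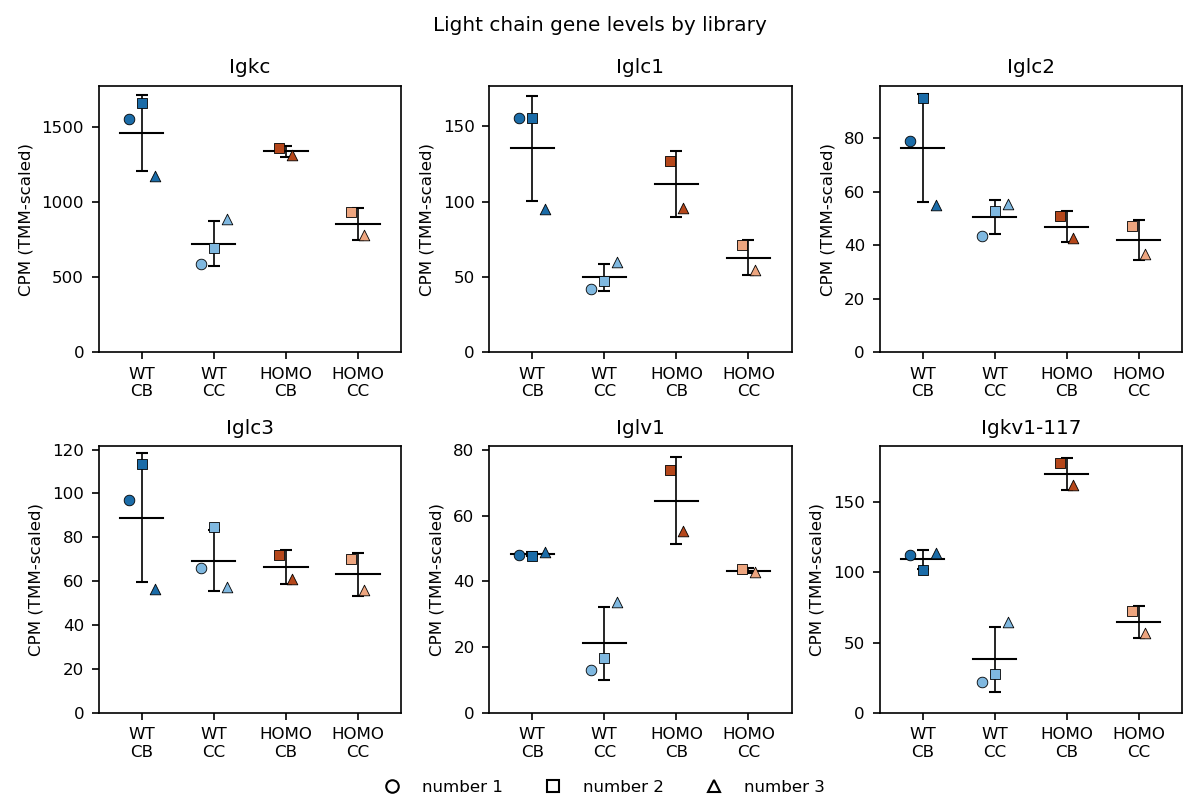
TMM-scaled CPM (vertical axis, from 0) of 6 light chain genes in the 4 groups (horizontal axis). Points are libraries, with shape giving the number in the count table, horizontal lines are group means and bars are SDs. Igkc and Iglc1 were lower in every CC library than in every CB library of the same genotype, while Iglc2 and Iglc3 overlapped between fractions in WT.

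Iglc2 and Iglc3 had smaller changes than Iglc1, and the difference between the genes was not tested. Iglc2 had 79.0, 94.8 and 54.9 CPM in WT CB and 43.4, 52.8 and 55.5 CPM in WT CC, so the groups overlapped by library 3. Iglc2 fell by 0.59 on the log2 scale (SE 0.19, edgeR adjusted p = 0.0414), but this call was lost in 12 alternative settings. It was lost without WT CB library 1 or 2, WT CC library 1 or 2, or any 1 of the HOMO libraries other than CC library 2 (adjusted p from 0.0504 to 0.154), and with the fixed replicate block (0.0501), and without WT numbers 1 and 2 the change was -0.01. Iglc3 had 97.1, 113 and 56.5 CPM in WT CB and 65.8, 84.7 and 57.4 CPM in WT CC, and changed by -0.36 (SE 0.24, edgeR adjusted p = 0.311). Iglc4, a rarely used constant gene, stayed under 1 CPM in all libraries and was at 0 counts in WT CC library 1, which allows up to 0.111 CPM at that library's raw depth.

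All 3 lambda V genes fell in WT CC. Iglv1, the main mouse lambda V segment, had 48.1, 47.8 and 48.96 CPM in WT CB and 12.9, 16.7 and 33.8 CPM in WT CC. All CC values were lower. Iglv1 fell by 1.21 on the log2 scale (SE 0.29, edgeR adjusted p = 0.0164), but did not pass (adjusted p of 0.0514, 0.0605 and 0.128) once WT CB library 2, WT CC library 2 or both WT numbers 1 and 2 were left out. Iglv2, its near copy, had 7.96, 8.52 and 7.58 CPM in WT CB and 1.15, 1.71 and 3.86 CPM in WT CC (log2 change -1.88, SE 0.35, edgeR adjusted p = 0.00382). Iglv3 had 17.1, 16.1 and 15.4 CPM in WT CB and 7.72, 9.11 and 10.95 CPM in WT CC (log2 change -0.81, SE 0.15, edgeR adjusted p = 0.00375). The Iglv2 call held in all alternatives, and the Iglv3 call was lost only without WT numbers 1 and 2 (adjusted p = 0.105).

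Of the 8 J segments, 2 fell between WT CB and WT CC. Iglj1, which joins to Iglc1, had 9.42, 8.90 and 3.83 CPM in WT CB and 0.452, 0.932 and 1.61 CPM in WT CC. These groups did not overlap, and the fall of 2.93 on the log2 scale (edgeR SE 0.46, adjusted p = 0.00139) was called in all alternatives. Igkj3 had 26.5, 25.8 and 15.6 CPM in WT CB and 9.49, 8.23 and 17.1 CPM in WT CC (log2 change -0.97, SE 0.27, edgeR adjusted p = 0.0265). Its WT CC library 3 lay above WT CB library 3. The Igkj3 call was lost without WT CB library 1 or 2 or WT CC library 1 or 2 (adjusted p from 0.0875 to 0.0983) and with the fixed replicate block (0.0619), and without WT numbers 1 and 2 the change was 0.11. The other 4 Igkj segments had log2 changes from -0.75 (Igkj1) to -0.38 (Igkj5), with Igkj2 at -0.42 and Igkj4 at -0.48, and none passed.

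Of the 97 Igkv segments tested, 44 fell in WT CC and 0 rose, with a median log2 change of -1.25. Among the 30 with a mean of at least 5 CPM, 20 fell (median -1.24), and among the 67 lower ones 24 fell (median -1.31). The Igkv8 family had 8 of its 9 tested segments called, Igkv4 had 6 of 30 and Igkv1 had 4 of 8, with medians of -1.56, -1.39 and -1.37. Segments in the same orientation as Igkc had a median of -1.22 (19 of 35 called) and those in the opposite orientation a median of -1.39 (25 of 62 called). The 43 called among 91 functional segments and the 1 called among 6 tested pseudogenes had group medians of -1.24 and -1.81.

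Among the most used segments, Igkv1-117 had 113, 102 and 114 CPM in WT CB and 21.7, 27.4 and 64.7 CPM in WT CC. All CC values were lower, and edgeR gave -1.54 on the log2 scale (SE 0.35, adjusted p = 0.0139, or 0.0505 without WT CB library 1). Igkv1-110 had 72.8, 62.6 and 84.7 CPM in WT CB and 13.2, 10.7 and 48.7 CPM in WT CC. It did not pass at -1.63 (SE 0.52, edgeR adjusted p = 0.0566), but was called in 8 alternatives, among them the fixed replicate block (-1.89, adjusted p = 0.0182) and the fit without WT CC library 3 (-2.60, 1.55e-05). Igkv1-135 fell by 1.19 on the log2 scale (SE 0.19, edgeR adjusted p = 0.00159), from 58.7, 61.5 and 44.4 CPM to 20.8, 19.1 and 32.7 CPM. Igkv6-15 fell by 1.42 (edgeR adjusted p = 0.00167), Igkv8-30 by 1.64 (0.00335), Igkv10-96 by 1.19 (0.00447) and Igkv12-44 by 1.25 (0.00471), while Igkv6-17 (-1.18, 0.102) and Igkv6-23 (-1.07, 0.106) did not pass. Without WT numbers 1 and 2, Igkv8-30 (adjusted p = 0.351), Igkv10-96 (0.165) and Igkv12-44 (0.0773) also did not pass.

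Igkv14-111, which lies between Igkv1-117 and Igkv1-110 in the locus, had 57.1, 49.4 and 26.3 CPM in WT CB and 25.1, 17.1 and 24.9 CPM in WT CC, so all CC values were lower than all CB values, by little in library 3. Its log2 change was -0.98 (SE 0.25, edgeR adjusted p = 0.0183). The call was lost without WT CB library 1, WT CB library 2 or WT CC library 2 (adjusted p from 0.0641 to 0.0707), and without WT numbers 1 and 2 the change was -0.10 (0.728).

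The Igkv segments with the largest called falls were low in all libraries and higher in CB, and such low members can pass the filter through the CB libraries. Igkv4-86 had 3.23, 3.71 and 3.08 CPM in WT CB and 0.164, 0.311 and 1.12 CPM in WT CC (log2 change -2.74, SE 0.55, edgeR adjusted p = 0.00523, or 0.0656 without WT numbers 1 and 2). The pseudogene Igkv4-60 changed by -2.54 (edgeR adjusted p = 0.0108, or 0.0542 without WT CB library 2). Igkv14-126 changed by -2.38 (edgeR adjusted p = 0.0158, and 0.0545 to 0.0638 without WT CB library 2, WT CC library 1 or WT CC library 2). Without WT numbers 1 and 2 the log2 changes were -1.48 for Igkv4-86, -1.91 for Igkv4-60, -1.04 for Igkv14-126 and -0.92 for Igkv8-18. Igkv8-18 rested on 2 counts in WT CC against 49 in WT CB, a CC to CB ratio of 0.0796 per total count (95% exact counting interval 0.00938 to 0.303), and its call (edgeR adjusted p = 0.0375) was lost without any 1 of 7 libraries, namely WT CB 1, WT CB 2, WT CC 1, WT CC 2, HOMO CB 2, HOMO CB 3 and HOMO CC 3 (0.0513 to 0.125).

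In HOMO the direction was the same and no member passed. The median change was smaller than in WT with all libraries. Without WT numbers 1 and 2 the medians were -0.45 in WT and -0.69 in HOMO. edgeR called 0 of 113 members in CC against CB, where 5.45% of all genes were called (2.98% lower and 2.46% higher). At an unadjusted p under 0.05 there were 22 members, or 19.5%, against 19.2% of all genes. DESeq2 called 9 lower, or 7.96% against 10.01% of all genes. The fit of only the HOMO libraries called 33 of 104, or 31.7% against 30.4%. The fixed block of the WT numbers, in which HOMO libraries are not paired, called 5, or 4.42% against 13.8%, and limma-voom with a random block called 0. These shares of members lay near or under those of all genes. Without the low-count filter the share was higher, with 21 of 136 called, or 15.4% against 5.04%. Leaving out WT CB library 3 gave 5 calls (9.44% of all genes), leaving out WT CC library 1 gave 2 (5.55%) and leaving out WT CC library 3 gave 12 (9.70%). Of the 113, 105 were lower in CC, with a median log2 change of -0.68 against -0.01 over all genes. For 76 members both HOMO CC libraries lay under both HOMO CB libraries, against 33.2% of all genes, and 1 member was higher without overlap, against 28.8%.

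The HOMO values of single genes followed the same pattern. Igkc changed by -0.65 (SE 0.20, edgeR adjusted p = 0.0887) and passed without WT CB library 3 (0.0367) or WT CC library 3 (0.034). Iglc1 changed by -0.82 (SE 0.26, edgeR adjusted p = 0.101, or 0.0234 without WT CB library 3). Igkv1-117 had 178 and 162 CPM in HOMO CB and 72.7 and 56.5 CPM in HOMO CC (log2 change -1.40, SE 0.42, edgeR adjusted p = 0.102, passing at 0.0322 without WT CC library 1 and 0.000491 without WT CC library 3). Iglv1 had 73.9 and 55.2 CPM in HOMO CB and 43.8 and 42.8 CPM in HOMO CC (log2 change -0.58, SE 0.35, edgeR adjusted p = 0.435, or 0.0479 without WT CC library 3). Iglv3 changed by -0.64 (SE 0.19, edgeR adjusted p = 0.0716, or 0.0364 with the fixed replicate block and 0.0317 without WT CC library 3). Iglj1 had 5.46 and 4.71 CPM in CB and 1.71 and 1.90 CPM in CC (log2 change -1.50, SE 0.53, edgeR adjusted p = 0.141). WT libraries enter these tests through the estimate of spread shared by all groups. The edgeR fit of only the HOMO libraries called Igkc (adjusted p = 0.000335), Igkv1-117 (4.94e-05), Iglv1 (0.0235), Iglv3 (0.00545) and Iglj1 (0.00141). It did not call Iglc1, and it called 30.4% of all genes. Iglc2 (-0.16) and Iglc3 (-0.07) were nearly level, as in the plot of gene levels.

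**Figure D2:**
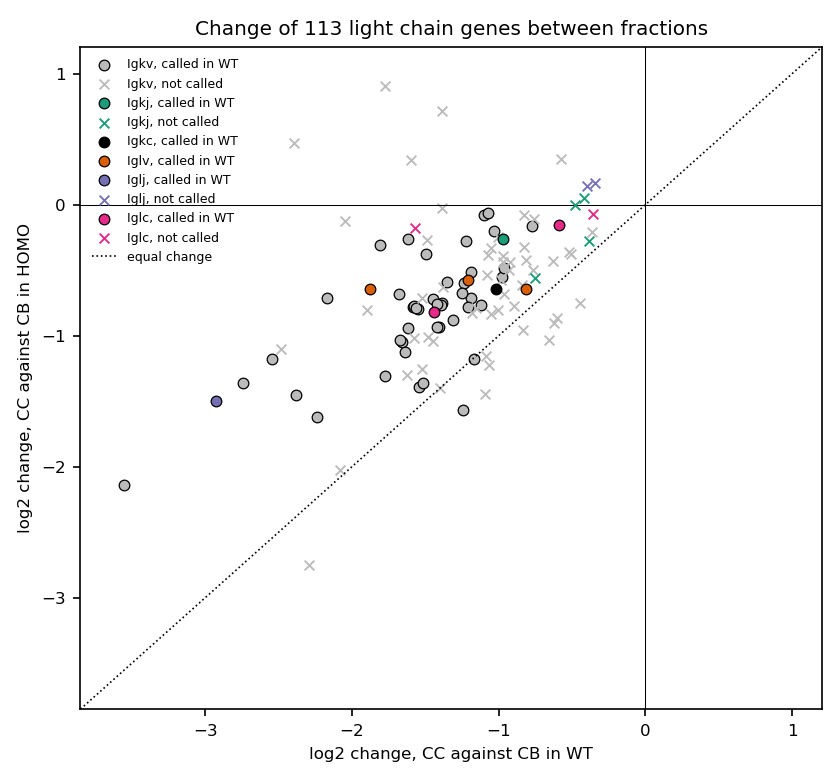
Fitted log2 change between CC and CB for the 113 tested light chain genes, in WT (horizontal axis) against HOMO (vertical axis). Each point is 1 gene, colored by class, circles were called in WT, crosses were not, and the dotted line marks equal changes. All 113 lay left of 0 in WT, 105 lay under 0 in HOMO, and 101 lay above the dotted line.

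The difference between these changes did not pass for any gene. The interaction, which tests whether CC minus CB differs between HOMO and WT, was positive for 101 of the 113 members, with a median of 0.54 against -0.00468 over all genes. edgeR called 0 of them, where 0% of all genes were called, DESeq2 called 0 and the random and fixed replicate blocks 0, with 5 members at an unadjusted p under 0.05. Across the 113 genes the changes in WT and in HOMO correlated with r = 0.49, a description over genes that share libraries. Without WT number 3 the interaction was called for 31 members (median 1.10), or 27.4% against 8.98% of all genes, and without WT numbers 1 and 2 its median was -0.21 with none called.

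Between genotypes the light chain genes showed no called difference. In CB, edgeR called 0 of 113 members, where 0.0241% of all genes were called (0.00603% higher and 0.0181% lower). The median log2 change, HOMO over WT, was -0.02, and 53 members were higher. Of the members, 4 had an unadjusted p under 0.05 (3.54%, against 12.5% of all genes) and DESeq2 called 1 (0.885%, against 1.67%). Both HOMO libraries lay above all WT libraries for 12 members and below for 7, against 18.8% and 16.4% of all genes. Without WT CB library 3, 6 members were called lower, or 5.31%, where 12.1% of all genes were called. Iglc2, at 51.0 and 42.8 CPM in HOMO CB, lay below all 3 WT CB libraries (log2 change -0.70, SE 0.21, edgeR adjusted p = 0.28). Igkv1-117, at 178 and 162 CPM, lay above all 3 (log2 change 0.64, SE 0.37, edgeR adjusted p = 0.503), and so did Igkv1-110, at 127 and 114 CPM (0.72, SE 0.54, edgeR adjusted p = 0.604).

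In CC, edgeR likewise called 0 of 113 members between HOMO and WT, where 0% of all genes were called. The median log2 change was 0.54, 93 members were higher in HOMO, 18 had an unadjusted p under 0.05 (15.9%, against 18.9% of all genes), and DESeq2 called 4 higher (3.54%, against 4.92%). HOMO lay above WT without overlap for 24 members, against 17.7% of all genes, and below for 0, against 17.4%. Iglv1 was 43.8 and 42.8 CPM in HOMO CC, above the 12.9, 16.7 and 33.8 CPM of WT CC (log2 change 1.05, SE 0.32, edgeR adjusted p = 0.158). Igkc was 932 and 778 CPM in HOMO CC, which overlapped with WT CC (0.24, SE 0.18, edgeR adjusted p = 0.493). This comparison depended on which WT CC libraries were included. Without WT CC library 3, 30 members were called higher (26.5%, where 14.8% of all genes were called), and Iglv1 passed at 1.56 (adjusted p = 0.00163), Igkv1-117 at 1.41 (0.00184) and Igkv1-110 at 2.04 (0.00142). Without WT numbers 1 and 2 the median was 0.04 and 0 were called. Apart from Apoe the macrophage marker sum was 37.0 and 31.3 CPM in HOMO CC against 775, 194 and 55.1 CPM in WT CC, and its part in these values was not tested.

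Kappa dominated in every library. Per kilobase of gene length, Igkc had a mean of 2057 CPM per kb over the 10 libraries, Iglc1 199, Iglc3 162, Iglc2 91.1 and Iglc4 1.21. The lambda share, the percentage of Igkc and Iglc reads per kb that lay on Iglc genes, was 19.1%, 19.4% and 16.1% in WT CB and 21.9%, 22.4% and 17.4% in WT CC. In HOMO it was 16.9% and 14.5% in CB and 18.2% and 17.3% in CC. WT CB and WT CC overlapped, and WT library 3 was the lowest of its group in both fractions. In the shallowest library, HOMO CC 3, the share of raw counts was 15.9% (95% Wilson interval 15.2% to 16.7%).

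No difference in the lambda share between groups passed. The group means were 18.2% ± 1.80 (SD, n = 3) in WT CB, 20.6% ± 2.78 (n = 3) in WT CC, 15.7% ± 1.75 (n = 2) in HOMO CB and 17.7% ± 0.663 (n = 2) in HOMO CC. CC exceeded CB by 2.36 percentage points in WT (two-sided exact permutation p = 0.3, smallest possible 0.1) and by 2.03 in HOMO (exact p = 0.333, the smallest possible), where the HOMO fractions did not overlap. Within WT numbers CC was higher in 3 of 3 (exact paired sign-flip p = 0.25, the smallest possible). HOMO minus WT was -2.50 points in CB and -2.84 in CC (exact p = 0.4 in both, smallest possible 0.2). With 1 library left out, the WT difference ran from 1.33 (without WT CB library 3) to 3.96 (WT CC library 3) and the HOMO difference from 0.789 (HOMO CB library 3) to 3.26 (HOMO CB library 2). HOMO minus WT ran from -3.74 (HOMO CB library 2) to -1.26 (HOMO CB library 3) in CB and from -4.44 (WT CC library 3) to -1.92 (WT CC library 2) in CC. The direction between fractions depended on the genes used. With Iglc1 alone against Igkc the share was 10.5%, 9.90% and 8.66% in WT CB against 7.79%, 7.39% and 7.32% in WT CC, a difference of -2.19 points, and in HOMO the difference was -0.96. With V segments in place of C regions the share was lower, between 7.05% and 11.05% over the 10 libraries, and HOMO exceeded WT by 0.71 points in CB and 1.85 in CC.

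**Figure D3:**
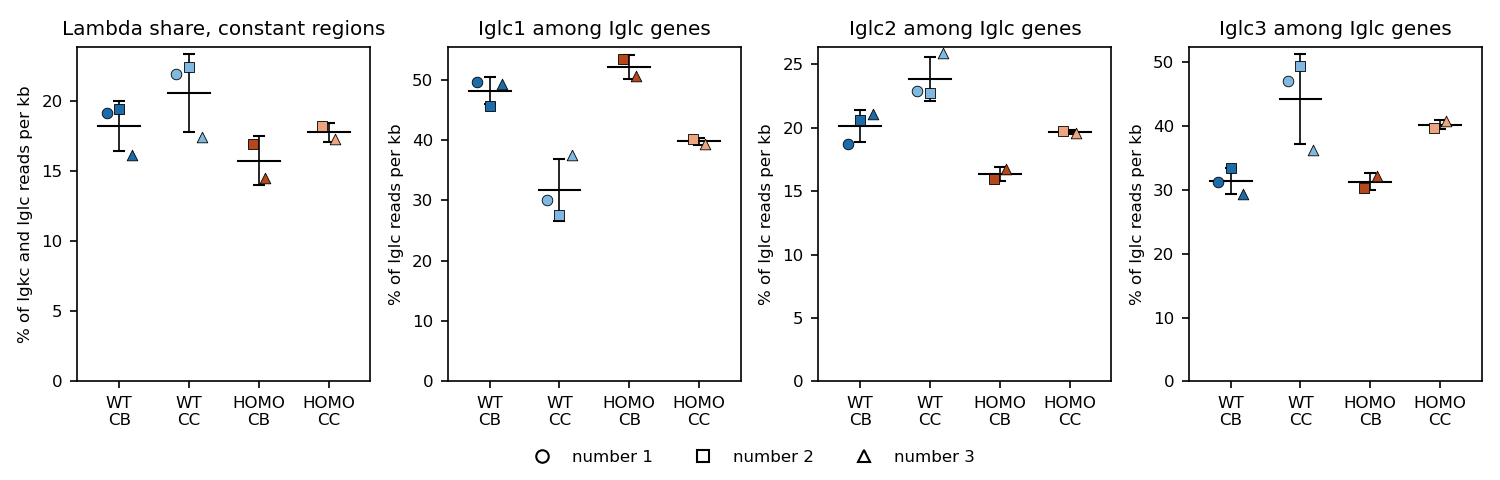
Lambda share of the constant region signal and the shares of Iglc1, Iglc2 and Iglc3 among Iglc genes (vertical axes, percent of reads per kb, from 0) by group. Points are libraries, shapes give the number in the count table, lines are means and bars are SDs. Iglc1 lay between 45.7% and 53.5% in CB and between 27.6% and 40.2% in CC, while the lambda share overlapped between the WT fractions.

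Within lambda, the mix of constant genes differed between CB and CC in both genotypes. Iglc1 made up 49.7%, 45.7% and 49.3% of Iglc reads per kb in WT CB and 30.1%, 27.6% and 37.6% in WT CC. In HOMO it made up 53.5% and 50.7% in CB and 40.2% and 39.4% in CC. Every CC library had a lower Iglc1 share than every CB library. Iglc3 was the reverse, with 29.4% to 33.4% over the CB libraries of both genotypes and 36.2% to 49.4% over the CC libraries. Iglc2 was 15.9% and 16.8% in HOMO CB against 18.7%, 20.6% and 21.1% in WT CB, and 19.8% and 19.6% in HOMO CC against 22.9%, 22.8% and 25.9% in WT CC. HOMO lay under WT in both fractions for Iglc2. These shares were not tested, and Iglc2 and Iglc3 are near copies.

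The lambda J segments gave a similar picture. Iglj1 held 59.9%, 55.5% and 51.3% of Iglj reads per kb in WT CB and 10.9%, 19.1% and 22.3% in WT CC, and in HOMO 51.0% and 52.2% in CB against 27.5% and 23.5% in CC. Iglj3p, which lacks the capitalised motif, held 23.1% to 34.6% over the CB libraries and 41.7% to 57.6% over the CC libraries. Its mean level was 84.5 CPM per kb in WT CB and 66.5 in WT CC, and 89.3 in HOMO CB and 101 in HOMO CC. In WT the larger share thus went with a lower level of Iglj3p. The Iglj shares in CC rest on few reads and were not tested. Among the lambda V segments Iglv1 was the main one, with 58.5% to 71.9% of Iglv reads per kb. Iglv3 held 35.9% and 33.6% in WT CC libraries 1 and 2 and 19.5% to 23.7% in the other 8 libraries. Iglv2 held 11.5%, 12.4% and 11.1% in WT CB and 5.57%, 6.55% and 8.40% in WT CC, but 7.77% and 9.26% in HOMO CB and 7.69% and 8.68% in HOMO CC.

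Among the kappa J segments, Igkj5 and Igkj4 had the largest mean shares of Igkj reads per kb, 26.7% and 25.6%, followed by Igkj2 with 20.2%, Igkj3 with 18.4% and Igkj1 with 9.08%. Igkj3 held 11.1% and 8.89% in WT CC libraries 1 and 2 and 17.7% to 23.0% in the other 8 libraries. Igkj1 ranged from 6.4% to 11.1%. A count on a J segment does not separate joined transcripts from unspliced or unrearranged ones, so these are shares of reads over the segments, not of joined light chains.

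Igkv usage was broad. A usage share is the percentage of Igkv reads per kb on a segment, and the effective number of segments is the exponential of the Shannon entropy of these shares, the number of equally used segments that would give the same evenness. It was 44.0, 50.7 and 41.9 in WT CB, 43.5, 49.7 and 46.6 in WT CC, 37.6 and 37.4 in HOMO CB and 44.9 and 45.1 in HOMO CC. Both HOMO CB libraries lay below every other library. The rank correlations with GC content were -0.63 and -0.60 in HOMO CB and 0.15, 0.25 and -0.46 in WT CB. The part of GC content in the usage values was not tested. HOMO CB minus WT CB was -8.04 segments (two-sided exact permutation p = 0.2, the smallest possible). HOMO CC exceeded HOMO CB by 7.50 (exact p = 0.333, the smallest possible), while the WT fractions differed by 1.07 (exact p = 0.8) and the genotypes in CC by -1.61 (exact p = 0.6). The WT difference moved from -0.746 without WT CB library 3 to 3.65 without WT CB library 2, and that between genotypes in CC from -3.17 without WT CC library 1 to -0.0537 without WT CC library 2. Between 93 and 120 of the 120 segments had a count in a library, and at a common depth of 4845 Igkv counts the expected number was between 92.7 and 107.

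Igkv1-117 led the usage with a mean share of 12.6%, followed by Igkv1-110 with 8.63%, Igkv1-135 with 6.63% and Igkv14-111 with 5.19%. Igkv1-117 made up 12.6%, 10.2% and 15.04% in WT CB, 8.89%, 9.17% and 11.8% in WT CC, 16.9% and 17.4% in HOMO CB and 12.4% and 11.4% in HOMO CC. Igkv1-110 made up 8.20%, 6.30% and 11.3% in WT CB, 5.46%, 3.598% and 8.93% in WT CC, 12.2% and 12.3% in HOMO CB and 9.41% and 8.69% in HOMO CC. These near copies together held 29.1% and 29.7% in HOMO CB against 20.8%, 16.5% and 26.3% in WT CB. They held 21.8% and 20.1% in HOMO CC against 14.4%, 12.8% and 20.7% in WT CC. HOMO CB lay above all WT CB libraries for their sum, and HOMO CC overlapped with WT CC. WT CB library 3, with the lowest GC correlation in WT CB, lay nearest to HOMO CB, and the part of GC content was not tested. The Igkv1 family as a whole held 36.0% and 37.6% in HOMO CB, above the 29.1%, 24.3% and 33.6% of WT CB.

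The top segment was Igkv1-117 in 9 of the 10 libraries and Igkv14-111 in WT CC library 1. There Igkv14-111 held 11.3% of usage, against a median of 3.98% and a maximum of 7.01% in the other libraries. In raw counts it was 610 of 5496 Igkv counts in that library, or 11.1% (95% Wilson interval 10.3% to 11.96%), and Igkv1-117 was 9.61% (8.86% to 10.4%). Segments that stood out in 1 library, chosen after their values were seen, were Igkv4-70 (0.979%, 53 counts) and Igkv3-5 (2.71%, 148 counts) in WT CC library 2, with medians of 0.23% and 0.739% elsewhere. Igkv3-2 stood out in HOMO CB library 2 (2.06%, 553 counts, median elsewhere 0.787%).

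By family, Igkv1 held a mean of 29.2% of usage with 10 segments, Igkv4 held 11.5% with 32 segments, Igkv6 10.9% with 9 and Igkv8 7.36% with 10. Pseudogenes held between 0.315% and 1.40% per library. By position, the 30 segments farthest from Igkj1 (2.25 to 3.17 Mb) held 45.3% of usage, and the 30 nearest (0.019 to 0.664 Mb) held 23.8%. The 60 in between, again in sets of 30, held 15.2% and 15.7%. The farthest set held 49.2% and 52.0% in HOMO CB against 46.8%, 42.0% and 48.4% in WT CB, and 38.0% to 45.9% over the WT CC and HOMO CC libraries. The 50 segments on the strand of Igkj and Igkc held 54.4% and the 70 on the opposite strand 45.6%, so both orientations were used.

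**Figure D4:**
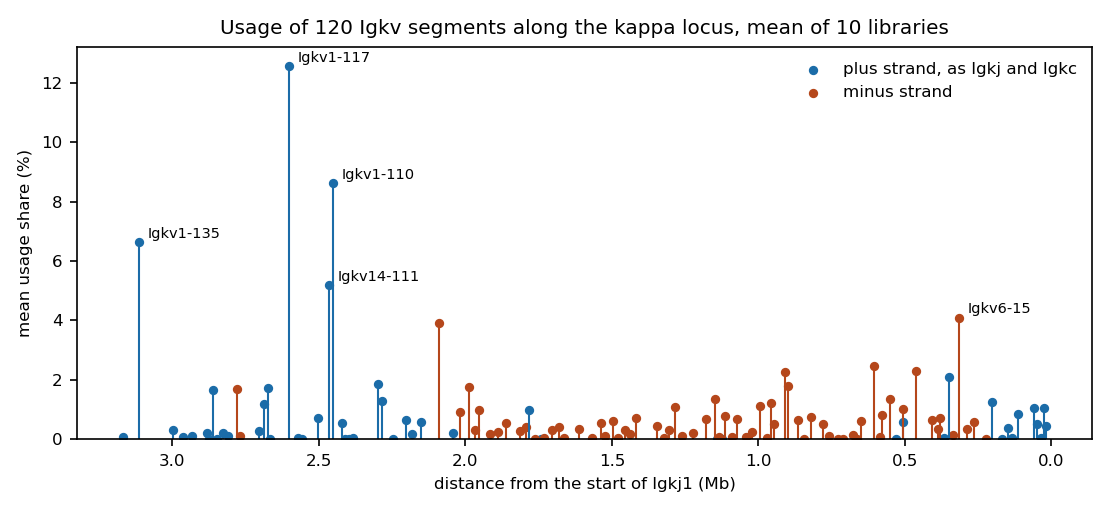
Mean usage share over the 10 libraries (vertical axis, percent) of each of 120 Igkv segments by distance from the start of Igkj1 (horizontal axis, Mb, Igkj1 at the right). Each stem is 1 segment, colored by strand. Igkv1-117 with 12.6%, Igkv1-110, Igkv1-135 and Igkv14-111 all lie more than 2.25 Mb from Igkj1.

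Libraries resembled each other in Igkv usage. Shared usage, the sum over segments of the lower of the 2 libraries' shares, was 79.0% to 91.4% between libraries of 1 genotype and fraction (8 pairs) and 84.7% to 88.2% between CB and CC of the same WT number (3 pairs). It was 79.98% to 91.9% between HOMO and WT in 1 fraction (12 pairs). The closest pair was WT CB library 3 and HOMO CB library 3 (91.9%), and the least alike were WT CC library 1 and HOMO CB library 2 (75.4%). WT CC library 3 was closest to HOMO CC library 2 (88.5%) and least like WT CC library 1 (79.0%). The median shared usage with the other 9 libraries was 79.98% for WT CC library 1 and 81.2% for WT CC library 2, against 83.6% to 87.4% for the others, as a description without a test.

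The ratio of V to C signal differed between the WT numbers. Igkv reads per kb summed over segments and divided by those of Igkc gave 0.759, 0.794 and 0.849 in WT CB, 0.548, 0.563 and 0.817 in WT CC, 1.02 and 0.935 in HOMO CB and 0.829 and 0.838 in HOMO CC. WT CC libraries 1 and 2 were the lowest of the 10. Iglv1 over Iglc1 gave 0.359, 0.356 and 0.598 in WT CB, 0.354, 0.407 and 0.656 in WT CC, 0.676 and 0.668 in HOMO CB and 0.714 and 0.909 in HOMO CC. For Iglv1 the libraries of WT numbers 1 and 2 lay under all others in both fractions. Igkj over Igkc was highest in WT CC libraries 1 and 2, at 2.04 and 1.86, against 0.971 to 1.71 in the other 8. These ratios mix the fragments that cover V, J or C exons with how reads across a joint were counted, and the part of GC content or RNA quality was not tested.

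**Figure D5:**
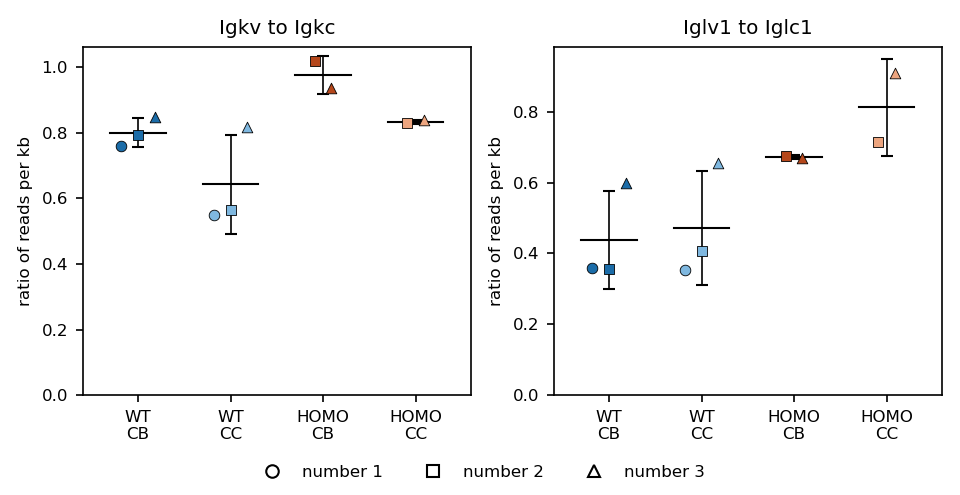
Ratio of V to C signal (vertical axes, ratio of reads per kb, from 0) for Igkv to Igkc and Iglv1 to Iglc1, by group. Points are libraries, shapes give the number in the count table, lines are means and bars are SDs. WT CC libraries 1 and 2 (0.548 and 0.563) had the lowest Igkv to Igkc ratios, and WT numbers 1 and 2 had the lowest Iglv1 to Iglc1 ratios.

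Other genes of light chain biology were read from lists, as counts. Over all genes tested, 12.3% fell and 11.6% rose in WT CC, and 2.98% fell and 2.46% rose in HOMO CC. Of 13 genes of the B cell receptor complex and surrogate light chain, 10 were tested, and 5 fell and 0 rose in WT CC (median log2 change -0.31). Jchain, which links antibodies into polymers, changed by -1.49 (SE 0.20, edgeR adjusted p = 0.000617). Btk, a cytoplasmic kinase in receptor signalling, changed by -0.53 (edgeR adjusted p = 0.00573) and Cd79b, a signalling subunit of the receptor, by -0.68 (0.0103). In HOMO 1 of these genes fell, Jchain with -1.43 (edgeR adjusted p = 0.00663). Igll1 and Vpreb1, parts of the surrogate light chain of B cell precursors, were under 0.2 CPM in all libraries. Of 13 V(D)J recombination genes 11 were tested. In WT 4 fell and 1 rose, among them the DNA ligase Lig4 (-1.51, edgeR adjusted p = 2.43e-05), Hmgb2 (-0.74, 0.00109) and Hmgb1 (-0.54, 0.00296), and in HOMO 3 fell. Rag1, the recombinase that cuts V and J segments, was under 1 CPM in all libraries.

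Of 22 transcription factors that act on light chain or B cell genes, 6 fell and 4 rose in WT CC and 4 fell and 1 rose in HOMO CC. Over all genes these shares were 12.3% and 11.6% in WT and 2.98% and 2.46% in HOMO. Pou2af1, the coactivator of octamer-binding factors at immunoglobulin promoters, changed by -1.33 (SE 0.13, edgeR adjusted p = 8.62e-05) in WT and -0.98 (SE 0.16, 0.00481) in HOMO. Foxo1 changed by -0.66 (0.000418) and -0.54 (0.0111), and Bach2 by -0.63 (0.00176) and -0.88 (0.00236). None of these 3 lists had a called gene between genotypes, where 0.0241% of all genes were called in CB and 0% in CC.

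Plasma cells make light chain RNA at very high levels, and their markers are given beside the light chain values. Of 15 tested plasma cell markers 3 fell and 1 rose in WT CC, and 2 fell and 1 rose in HOMO CC. Jchain, given above, is also in this list and had its lowest log2 change, -1.49 in WT and -1.43 in HOMO. The change was positive for 9 of the 15 in WT and for 6 in HOMO. The summed level of the list was 1851 to 1886 CPM in WT CB, 1260 to 1577 CPM in WT CC, 1930 to 2059 CPM in HOMO CB and 1444 to 1471 CPM in HOMO CC. The defining markers Prdm1 and Sdc1 were low, with 2.01, 2.61 and 6.93 CPM of Prdm1 in WT CB and 5.63, 6.73 and 14.2 CPM in WT CC, and Sdc1 ranged from 0.378 to 2.97 CPM over all libraries. No gene of this list was at 0 in all libraries. Naive and memory B cell markers, 11 tested, summed to 932 to 997 CPM in WT CB and 1286 to 1451 CPM in WT CC, with 3 called higher and 1 lower. Of the T cell markers, Lck had 63.4 to 116 CPM in CB and 110 to 224 CPM in CC, and the other 11 summed to 0.756 to 10.3 CPM in CB and 1.30 to 18.3 CPM in CC. In each genotype 1 of the 12 was called higher. Of 12 macrophage markers 9 were called higher in WT CC and 0 in HOMO CC. The part of these cells in the light chain values was not tested.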

How the data were processed

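The deposited table holds whole-number read counts per gene that the authors made for the 10 libraries, with ribosomal RNA depleted before sequencing per the labels' protocols. FastQC, STAR, Subread, featureCounts, R 4.2.1 and mm10 are named in the submitters' processing notes. How strand, multi-mapping and overlaps were handled is not given there. A length column of the deposited table gave bases per gene.

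Counts were tested over all genes with edgeR 4.0.16 (R 4.3.3): filterByExpr, TMM scaling, 4 group means over all 10 libraries, a robust quasi-likelihood test and Benjamini-Hochberg adjustment, with genes called at 0.05. Alternatives used DESeq2 1.42.0 and limma 3.58.1 (voom), other filters and scalings, a GC offset, a replicate block and each library left out. Usage shares are counts per kb of deposited length. Single measures were compared with two-sided exact permutation tests in scipy 1.17.1, and sequences were aligned with Biopython 1.88. The count test was checked on simulated data. These had independent libraries, a fixed dispersion and changes only in genes of at least 5 CPM. The check therefore does not cover the differences between WT libraries or the low members.

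The genes named are the C, J and Iglv genes, the 10 most used Igkv segments, any segment leading a library, up to 4 Igkv segments with the largest called change in each direction per comparison, and up to 3 called genes of each pathway list. Members, lists and this rule were chosen with earlier results of these data known. WT numbers are shared by CB and CC titles. Deviations of same-numbered WT libraries correlated at 0.301, 0.426 and 0.436 (8805 genes), against -0.411 to 0.278 for other pairs. The main fit and the permutation tests did not pair them. Pairing entered only the replicate-block alternatives, the sign-flip test and the differences within WT numbers. HOMO columns are numbered 2 and 3 where the titles say 1 and 2, and such numbers serve as names. "AID" in the column names is not explained in the labels.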

Additional observations from a re-analysis of the deposited data

Results flagged for a closer look

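Iglv2 stood out because its level moved in opposite directions between genotypes in the CB and CC fractions. In mean CPM, HOMO minus WT was -0.774 in CB, where both HOMO libraries (7.47 and 7.02 CPM) lay under all WT libraries by little (log2 change -0.15). It was 2.41 in CC, where both (4.46 and 4.84 CPM) lay above all WT libraries. Of all genes, 16.4% lay lower without overlap in CB and 17.7% higher in CC. Iglv1, its near copy, was higher in HOMO in both fractions, and the split of reads between the copies is uncertain. The difference between these CPM values was not tested. On the log2 scale the edgeR interaction of genotype and fraction was 1.23 (SE 0.54, unadjusted p = 0.0426, adjusted p = 1).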

How the results depend on the processing

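In WT CC against CB, 52 members were called, or 46.0% against 23.9% of all genes. With replicate numbers as a block this became 68 (fixed, 60.2% against 35.4%) and 75 (random, 66.4% against 33.6%), both with a median of -1.30. Fitting only the groups compared gave 31 (29.2% against 15.6%). Leaving out 1 library gave 20 (17.9% against 14.7%) to 77 (68.1% against 32.5%). In HOMO CC against CB, where 0 were called, DESeq2 gave 9 (7.96% against 10.01%) and no low-count filter 21 (15.4% against 5.04%). Only the groups compared gave 33 (31.7% against 30.4%) and the fixed block 5 (4.42% against 13.8%). Scaling without immunoglobulin genes gave 1 (0.885% against 5.36%) and a stricter filter 1 (1.01% against 7.51%). Leaving out 1 library gave 0 to 12 (10.6% against 9.70%). For HOMO against WT in CB, DESeq2 gave 1 (0.885% against 1.67% of all genes) and no filter 6 (4.41% against 2.02%). Leaving out 1 library there gave 0 to 6 (5.31% against 12.1%). In CC these were 4 (3.54% against 4.92%), 17 (12.5% against 4.49%) and 0 to 30 (26.5% against 14.8%). The block moved no other count by over 1.5 times.

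Leaving out WT numbers was chosen after seeing the data. Without number 3 the calls were 85 (WT), 24 (HOMO), 14 (CB), 43 (CC) and 31 (interaction). Of all genes 46.02%, 23.04%, 30.4%, 31.3% and 8.98% were then called. Without numbers 1 and 2 they were 12, 32, 4, 0 and 0, and the interaction median was -0.21. Of all genes 14.7%, 27.0%, 4.07%, 3.95% and 0.00606% were then called. The 32 in HOMO (29.1% of members) and the 4 in CB (3.64%) thus lay near the shares of all genes. That fit has only 1 library in each WT group. Then also Igkc turned to 0.17 (HOMO over WT in CB) and -0.027 (in CC), Iglc1 to 0.20 (in CB) and Igkj3 to 0.11 (WT CC over CB). Leaving out 1 library moved Iglc3 (HOMO CC over CB) between -0.25 and 0.0686, turning it without HOMO CB library 2 or HOMO CC library 3. The light chain share difference (HOMO minus WT in CB) moved between -0.0212 and 0.0140 percentage points, and the effective number difference (WT CC minus CB) between -0.746 and 3.65. The lambda share difference turned with V segments (0.707 in CB and 1.85 in CC, HOMO minus WT) and with Iglc1 alone (0.409 in CC, and -2.19 in WT and -0.962 in HOMO for CC minus CB). The cause was not tested. Depth limits the 23 untested members and the low J and Igkv counts of the CC libraries.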
